A study of Mus musculus with 8 samples.

Results

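Notch signaling in the Brap-deficient liver was followed through 10 genes, which were taken by symbol from the 24451 genes of the deposited expression table. All 10 were found. They are the 4 receptor genes Notch1, Notch2, Notch3 and Notch4, the 3 ligand genes Jag1, Jag2 and Dll4, and the 3 target genes Hes1, Hey1 and Heyl. RNA of the left liver lobe was sequenced from 4 Brap LKO mice (Brap fl/fl; Alb Cre+) and from 4 controls of the genotype Brap F/F (Brap fl/fl; Alb Cre-), which the labels call wild type although they carry the floxed alleles. All were male mice labelled C57BL/6, from a floxed line made on a C57BL/6J background, aged 18 wk and without food for the last 6 h. BRAP is a ubiquitin ligase, and Cre under the Albumin promoter was used to delete its gene in the liver. The study describes the Brap LKO mice as without Brap expression in hepatocytes. Whether the gene was also deleted in other liver cells, such as those of the bile ducts, is not stated. No group carried Cre without floxed alleles.

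Notch is a pathway between touching cells. A ligand of the Jagged or Delta-like family on the surface of a cell binds a Notch receptor on its neighbor, the receptor is cut by the protease ADAM10 and then by γ-secretase, and the freed intracellular part joins the DNA-binding protein RBPJ and a Mastermind coactivator in the nucleus to switch on genes of the HES and HEY families, which encode transcriptional repressors. In the liver, JAG1 and NOTCH2 are best known for the formation of bile ducts, while DLL4, NOTCH1 and NOTCH4 are known from blood vessels and NOTCH3 and HEYL from the mural cells that wrap them. Loss of JAG1 or NOTCH2 function causes Alagille syndrome, in which bile ducts are scarce. The study lists Notch2 and Jag1 among the genes that YAP, a transcriptional effector of the Hippo pathway, controls. By qPCR, it reports that these YAP targets were raised in Brap LKO livers. Sequencing is another assay, and whether the same livers were used for both is not stated. The levels of Notch2 and Jag1 in the sequenced livers are therefore given in full.

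Values are normalized counts, which are reads counted on a gene divided by a size factor for the liver. Between 26280884 and 33313914 reads per liver fell on genes. limma was run on log2(normalized count + 1) of the 15352 genes whose mean over the livers reached 5, and a gene was called where its p-value, adjusted over all of them, was under 0.05. Each of the 10 Notch genes reached this mean. The tissue label was checked on hepatocyte markers, of which Alb was the most abundant, with at least 1438000 normalized counts in every liver. Brap itself was counted at 3641 to 4203 in Brap LKO and at 3994 to 4410 in control livers (difference -0.07 on the log2 scale, limma adjusted p = 0.631). The deletion removes part of the gene, so this total does not check the labels.

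By limma's adjusted p-value, 0 of the 10 Notch genes were called, where 0.769% of all tested genes were, 0.664% as higher and 0.104% as lower in Brap LKO. The count was also 0 with edgeR, which called 0.795% of all genes (0.703% higher), and with DESeq2, which called 3.7%. In 0 of the 10 genes did every liver of a group lie above every liver of the other, against 9.87% of all tested genes. At an unadjusted p-value under 0.05 the count was 2, Notch2 and Notch3, both with higher means in Brap LKO, beside 15.8% of all tested genes, 9.23% higher and 6.59% lower. Fitted log2 fold changes ran from -0.17 for Notch1 to 1.03 for Hey1, with 7 above 0 and 3 below, where 48% of all tested genes were above 0. Their median was 0.13, and that of all tested genes -0.01. The plot of normalized counts by liver shows the overlap of the groups in each gene.

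**Figure D1:**
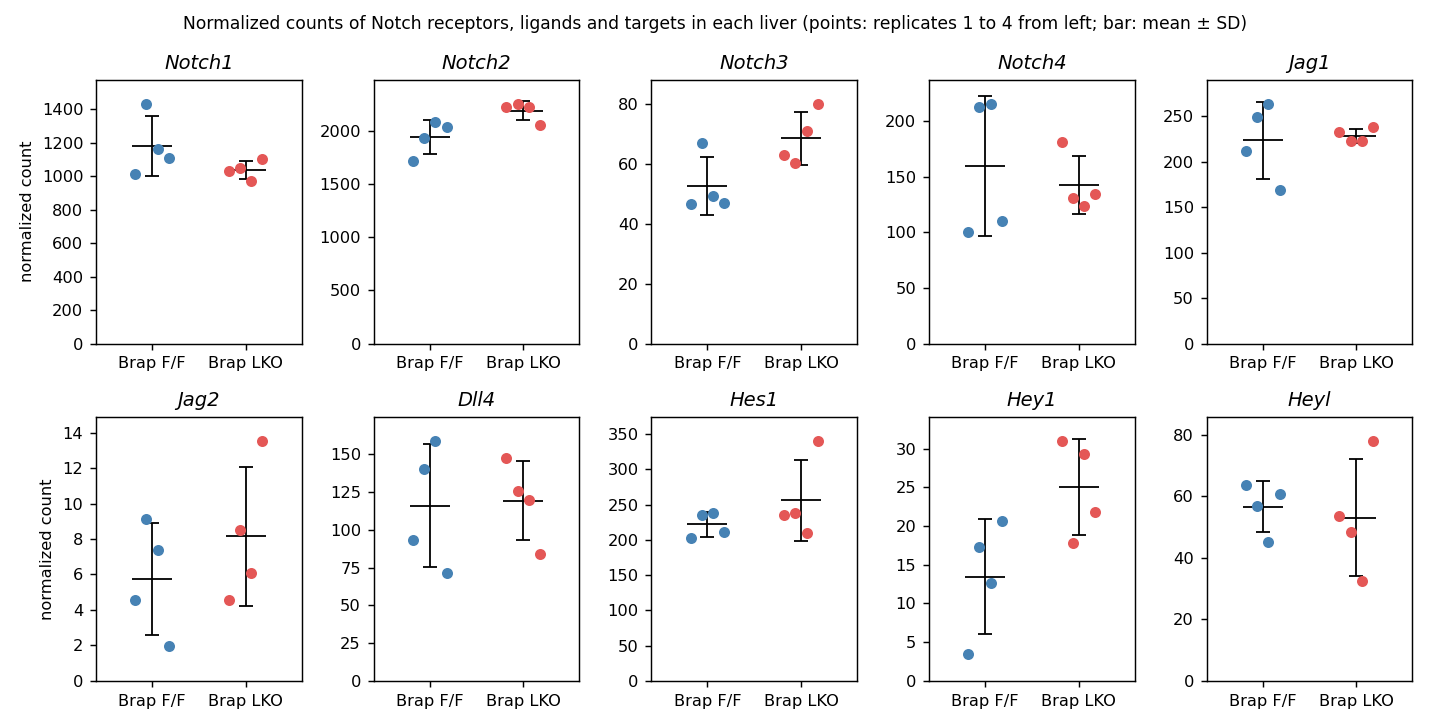
Normalized count (vertical axes, each from 0) of the 10 Notch genes in the 4 control livers (Brap F/F, blue) and the 4 Brap LKO livers (red), with replicates 1 to 4 from left to right and the mean ± SD in black. The groups overlap in all 10 genes, and Notch4, Jag1 and Dll4 spread more widely among the controls than among the Brap LKO livers.

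Notch2 was the most abundant receptor. Its gene lies on chromosome 3 (mm10, 98013527 to 98150361, forward strand) and has 34 exons in the transcript with the longest coding sequence. Its normalized count was 2225, 2252, 2219 and 2051 in Brap LKO replicates 1 to 4 and 1716, 1933, 2077 and 2030 in control replicates 1 to 4. Of the Brap LKO livers, 3 lay above every control, and replicate 4 lay below control replicate 3. The log2 fold change was 0.18 (standard error 0.0747, 95% confidence interval 0.0083 to 0.34), or 1.13-fold, with a limma adjusted p of 0.298 and p = 0.0571 in a two-sided exact permutation test over the 70 arrangements of 4 livers against 4, whose smallest possible p is 0.0286. The interval reached at most 1.27-fold. Bringing all livers to a common total moved the median of all tested genes to 0.15 and gave Notch2 a log2 difference of 0.33 with a limma adjusted p of 0.0398. That scaling called 3.12% of all genes, 2.99% as higher. The same-strand gene Gm42820, which shares 5.02% of the exon bases of Notch2, had at most 8.41 normalized counts.

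Notch1 encodes the receptor best known from endothelium and lymphocytes. It lies on chromosome 2 from 26457903 to 26516663 on the reverse strand. Its normalized count was 1031, 1050, 974 and 1102 in Brap LKO replicates 1 to 4 and 1014, 1434, 1165 and 1107 in control replicates 1 to 4. Brap LKO replicate 3 lay below all controls, the other Brap LKO livers lay within the control range, and the highest value was that of control replicate 2. The log2 fold change was -0.17 (95% confidence interval -0.41 to 0.06, limma adjusted p = 0.448). It was -0.0741 without control replicate 2 and -0.0145 with all livers at a common total. Of the exon bases of Notch1, 7.5% are shared with 0610009E02Rik and 2.91% with Gm13568, both on the opposite strand, and the use of strand in counting is not stated. At most 27.2 and 9.11 normalized counts were assigned to these genes in any liver.

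Notch3, on chromosome 17 from 32120820 to 32166852, is a receptor of vascular smooth muscle and pericytes. It was counted at 62.9, 60.3, 70.8 and 80.1 in Brap LKO replicates 1 to 4 and at 46.7, 67.1, 49.4 and 47.1 in control replicates 1 to 4. Control replicate 2 stood within the Brap LKO range and the other 3 controls below it. Its difference was 0.38 on the log2 scale, with a 95% confidence interval from 0.00063 to 0.77 and a limma adjusted p of 0.315, and a two-sided exact permutation test gave p = 0.0857. Gm17276, on the opposite strand, shares 6.03% of its exon bases and had at most 7.65 normalized counts. Of all tested genes, 48% were fitted higher in Brap LKO and 9.23% were higher at an unadjusted p-value under 0.05. Of 7 vascular smooth muscle markers, 6 were tested. Of these, 5 were fitted higher in Brap LKO, none (0) passed the threshold and 1 was higher at an unadjusted p-value under 0.05. The most abundant was Rgs5 (0.22, limma adjusted p = 0.446), and the list summed to 1558 to 1701 normalized counts in Brap LKO and 1209 to 1423 in control livers. The part of these markers, or of the stellate cell marker Pdgfrb described below, in the values of Notch3 was not tested. In whole liver RNA, more cells of a type and more RNA per cell cannot be told apart.

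Notch4, on chromosome 17 from 34564268 to 34588503, is an endothelial receptor. Its normalized count was 181, 131, 123 and 134 in Brap LKO replicates 1 to 4. In control replicates 1 to 4 it was 100.3, 213, 216 and 109.9. The 4 Brap LKO livers lay between the 2 lower and the 2 higher controls. Its difference on the log2 scale was -0.09 (95% confidence interval -0.70 to 0.52, limma adjusted p = 0.892), and its sign changed with the scaling to the same total (0.07).

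**Figure D2:**
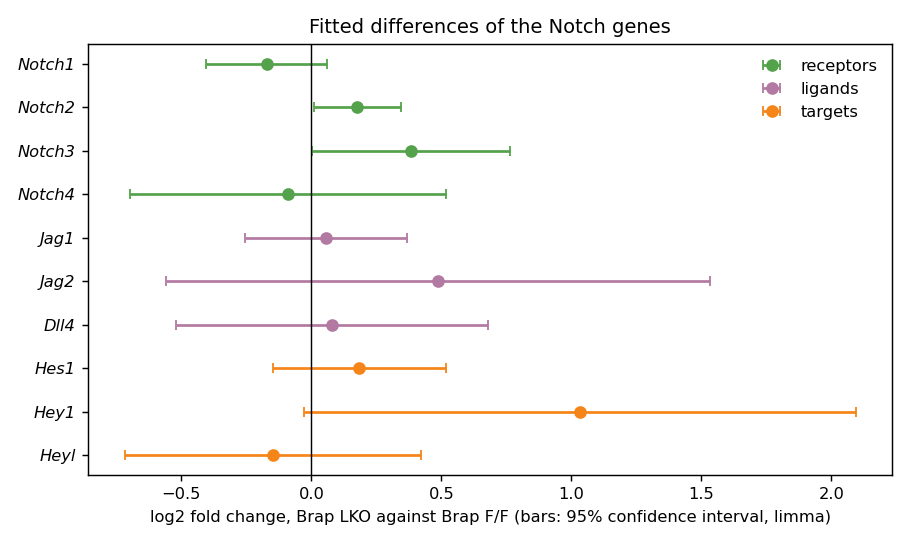
Fitted log2 fold change of Brap LKO against Brap F/F (horizontal axis) for each Notch gene, with 95% confidence intervals from limma. Intervals are narrow for Notch2 (0.0083 to 0.34) and Notch1 (-0.41 to 0.06) and wide for Hey1 (-0.03 to 2.10) and Jag2 (-0.56 to 1.54), the genes with the fewest reads.

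Since normalized counts grow with transcript length, receptors were set beside each other per kb of exon within each liver. A share of this kind does not depend on how livers are scaled. Notch2 made up 67.2% ± 1.90 (SD, n = 4) of the receptor signal in Brap LKO and 62.4% ± 3.86 (SD, n = 4) in control livers, with overlapping ranges. The share of Notch1 was 24.2% ± 1.49 (SD, n = 4) and 28.6% ± 2.41 (SD, n = 4). All 4 Brap LKO livers lay below all 4 controls, at 22.9% to 26.3% against 26.6% to 32.0%. The nearest livers of the groups stood close, at 26.33% and 26.63%. No background over all genes was computed for such a share. In normalized counts, the groups did not overlap in 9.87% of all tested genes. Notch4 held 5.84% ± 0.981 and 6.71% ± 2.11 (SD, n = 4 each), and Notch3 2.81% ± 0.429 and 2.25% ± 0.299 (SD, n = 4 each), both with overlapping ranges. The share was also computed from the same counts with the length of the longest coding transcript in place of all exon bases. Notch1 then held 31.5% in Brap LKO and 36.5% in control livers, again without overlap.

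The main pair of receptors was also set side by side as a ratio. Per kb of exon, there was 2.85, 2.83, 3.01 and 2.46 times as much Notch2 as Notch1 in Brap LKO replicates 1 to 4, and 2.23, 1.78, 2.35 and 2.42 times as much in control replicates 1 to 4. The groups did not overlap, but the gap between Brap LKO replicate 4 and control replicate 4 was small. This ratio was chosen after the counts of both genes had been seen, and is given as a description with no test. For the ratio of Notch2 to each of the 15351 other tested genes, the groups did not overlap in 18.5%, and for that of Notch1 in 9.56%.

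**Figure D3:**
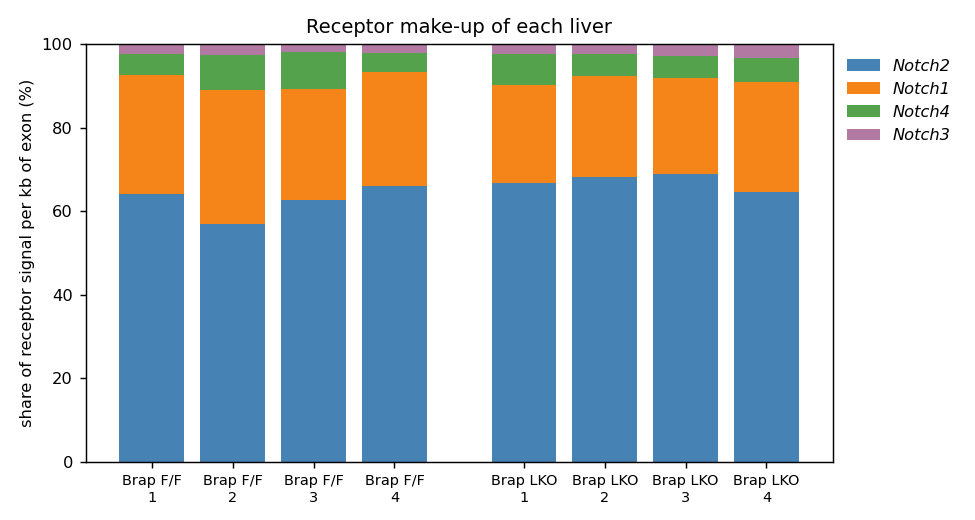
Share of each receptor in the summed receptor signal of a liver (vertical axis, percent of normalized counts per kb of exon), one bar per liver. Notch2 and Notch1 fill most of every bar, and the Notch1 segment is 26.6% to 32.0% in the controls and 22.9% to 26.3% in Brap LKO.

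The sequences before the transcription starts of Notch1, Notch2 and Jag1 are shown because these are the main receptors and the main ligand, and because the study places Notch2 and Jag1 under YAP, which reaches DNA through TEAD factors. RefSeq windows of build GRCm38.p6 were found for 7 of the 10 genes, and each was searched over 300 bases, from 250 before to 50 after the start. Capitals mark the TEAD core GGAATG, here on the reverse strand as CATTCC. The 250 bases before the start are printed 5′ to 3′ on the strand of the gene.
Notch1, chr2:26503823-26504072, reverse strand: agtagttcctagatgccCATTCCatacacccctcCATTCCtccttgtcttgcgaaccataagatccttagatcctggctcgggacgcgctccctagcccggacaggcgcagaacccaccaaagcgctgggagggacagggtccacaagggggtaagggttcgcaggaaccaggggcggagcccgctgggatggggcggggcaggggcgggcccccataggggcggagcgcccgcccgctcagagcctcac
Notch2, chr3:98013288-98013537, forward strand: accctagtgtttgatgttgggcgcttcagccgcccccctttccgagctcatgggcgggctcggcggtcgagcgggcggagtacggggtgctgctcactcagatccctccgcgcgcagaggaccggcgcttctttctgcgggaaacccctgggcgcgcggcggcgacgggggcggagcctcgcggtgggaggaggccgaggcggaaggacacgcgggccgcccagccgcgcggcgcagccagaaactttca
Jag1, chr2:137116521-137116770, reverse strand: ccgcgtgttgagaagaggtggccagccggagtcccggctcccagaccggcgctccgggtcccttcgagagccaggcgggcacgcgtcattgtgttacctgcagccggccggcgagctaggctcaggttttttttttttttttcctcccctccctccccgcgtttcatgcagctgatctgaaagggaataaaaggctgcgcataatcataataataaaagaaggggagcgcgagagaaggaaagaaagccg

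The Notch1 window holds the TEAD core at 2 places, which begin 233 and 216 bases before the start, and the Notch4 window holds it once, at 227 bases. The windows of Notch2, Notch3, Jag1, Jag2 and Dll4 do not hold these letters. Of 32851 RefSeq promoter windows of the same length, 14.7% do on either strand. The RBPJ core TGGGAA, searched on both strands, is in 0 of the 7 windows and in 25.6% of all windows. The 2 cores share the letters GGAA, so a site of each can overlap. The Notch1 window lies inside the gene as GENCODE draws it, since that annotation also places a first exon further upstream. The Jag2 window also lies inside its gene, and those of Jag1, Notch2 and Notch4 do in part. On the reverse strand, Jag1 begins at 137116644, within its printed window. Of the printed bases, 66% are G or C in Notch1, 72% in Notch2 and 57.2% in Jag1, with 16, 34 and 20 CpG pairs. A match of letters is a description of the window, not evidence of a bound factor.

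Jag1, the ligand that bile duct formation depends on, averaged 229 ± 7.69 normalized counts in Brap LKO and 224 ± 42.5 in control livers (SD, n = 4 each). The gene lies on chromosome 2 from 137081456 to 137116644 on the reverse strand. Its normalized count was 232, 223, 223 and 238 in Brap LKO replicates 1 to 4 and 212, 249, 264 and 169 in control replicates 1 to 4. All Brap LKO livers lay inside the control range, and their coefficient of variation was 3.36% against 19% among the controls. limma fitted a log2 difference of 0.05 (95% confidence interval -0.26 to 0.37, limma adjusted p = 0.870), so that a rise above 1.29-fold or a fall to under 0.837-fold lay outside the interval. These limits hold for the size factors of the deposited values. With all livers at a common total, the log2 difference of Jag1 was 0.21 (limma adjusted p = 0.363).

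Dll4, the Delta-like ligand of endothelial cells, lies on chromosome 2 from 119325784 to 119335962 on the forward strand. It was counted at 148, 126, 119 and 84.2 in Brap LKO replicates 1 to 4 and at 93.5, 140, 159 and 71.6 in control replicates 1 to 4. The lowest liver of each group was replicate 4, and the groups overlapped over most of their range. The fitted log2 difference was 0.08 (95% confidence interval -0.52 to 0.68, limma adjusted p = 0.904), with a sign that changed under quantile normalization (-0.05). Of its exon bases, 5.56% are shared with Gm14207 on the opposite strand, which had at most 9.36 normalized counts in any liver.

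Jag2, on chromosome 12 from 112907819 to 112929776, was close to the limit of detection. It was counted with 5, 10, 6 and 13 reads in Brap LKO replicates 1 to 4 and with 4, 9, 7 and 2 reads in control replicates 1 to 4. The fitted log2 fold change of 0.49 had a 95% confidence interval from -0.56 to 1.54 (limma adjusted p = 0.632), whose upper end is 2.90-fold. Without control replicate 4 it was 0.14.

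Among the ligands, Jag1 held 55.3% ± 5.49 of the signal per kb of exon in Brap LKO and 56.2% ± 4.41 in control livers (SD, n = 4 each). Dll4 held 43.0% ± 6.39 and 42.7% ± 4.08 (SD, n = 4 each). The remaining 1.69% and 1.12% were Jag2. Summed over the 3 ligands, the signal was 71.4 ± 5.84 and 69.3 ± 18.1 normalized counts per kb (SD, n = 4 each). The 2 groups overlapped in each of these quantities, and the total spread more widely among the controls.

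Hes1, the repressor most often read as a Notch target, lies on chromosome 16 from 30064384 to 30067796 on the forward strand. Its normalized count was 236, 239, 209 and 340.1 in Brap LKO replicates 1 to 4 and 203, 236, 238 and 211 in control replicates 1 to 4. Brap LKO replicate 4 was the highest of all livers, and of the other 3, replicates 1 and 3 lay within the control range and replicate 2 just above it. Its difference on the log2 scale was 0.18 (95% confidence interval -0.15 to 0.52, limma adjusted p = 0.568), and it was 0.04 without Brap LKO replicate 4. This liver also had the highest summed cholangiocyte markers, 4592 normalized counts against 2446 to 2789 in the other Brap LKO livers. The part of these cells in the value of Hes1 was not tested.

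Hey1, a repressor known from endothelial Notch signaling, had the largest fitted difference of the 10 genes. It lies on chromosome 3 from 8663359 to 8667256 on the reverse strand. Its normalized count was 31.0, 17.8, 29.3 and 21.8 in Brap LKO replicates 1 to 4 and 3.42, 17.3, 12.6 and 20.6 in control replicates 1 to 4. Control replicate 4 lay above Brap LKO replicate 2, and control replicate 1 had 3 reads where the other livers had 12 to 34. The fitted log2 difference was 1.03 (standard error 0.473, 95% confidence interval -0.03 to 2.10), with a limma adjusted p of 0.329 and p = 0.0571 in the two-sided exact permutation test. Without control replicate 1 it was 0.54.

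Heyl, on chromosome 4 from 123233556 to 123249875, encodes another HEY repressor. It was counted at 53.7, 48.4, 32.4 and 78.0 in Brap LKO replicates 1 to 4 and at 63.8, 57.0, 45.2 and 60.8 in control replicates 1 to 4. The Brap LKO livers held both the lowest and the highest value. The fitted log2 difference was -0.15 (95% confidence interval -0.72 to 0.42, limma adjusted p = 0.804), and 0.0071 when every liver was scaled to the same total. Per kb of exon, Hes1 held 87.4% ± 1.56 of the signal of the 3 targets in Brap LKO and 87.7% ± 2.11 in control livers (SD, n = 4 each). Hey1 held 5.57% ± 2.03 and 3.28% ± 1.81, and Heyl 7.09% ± 1.21 and 9.02% ± 1.80 (SD, n = 4 each).

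Over all 8 livers, the order of levels per kb of exon ran from Notch2 (191 normalized counts per kb) through Hes1 (117), Notch1 (78.0), Jag1 (38.8), Dll4 (30.5), Notch4 (18.7), Heyl (10.7), Notch3 (7.49) and Hey1 (5.89) to Jag2 (0.999). Within a liver, each gene down to Dll4 lay above the next in 8 of 8 livers, as did Hey1 above Jag2. Notch4 lay above Heyl in 7 of 8 livers and Heyl above Notch3 in 7 of 8. Notch3 and Hey1 could not be ordered, with Notch3 above in 5 of 8. With transcript length in place of exon bases, Notch2 lay above Hes1 in 7 of 8.

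The Notch genes are expressed in several minor cell types, so markers of these types were read beside them. Cholangiocytes line the bile ducts, where Jag1, Notch2 and Hes1 are known to act. Of all tested genes, 48% were fitted higher in Brap LKO, 9.23% were higher at an unadjusted p-value under 0.05, and 0.664% were called higher. Of 13 cholangiocyte markers, 11 were tested, and all 11 were fitted higher in Brap LKO (median 0.89 on the log2 scale). Of the 11, 8 had an unadjusted p-value under 0.05, and 2 passed the threshold. These were Cftr, a chloride channel (2.91, limma adjusted p = 0.0331), and Bicc1, an RNA-binding protein (1.50, limma adjusted p = 0.0313). Cftr had at most 2.10 normalized counts in any control, with means of 14.1 in Brap LKO and 1.02 in control livers. It reached the mean of 5 needed for testing only through the Brap LKO livers, so its call and the size of its difference rest on control values near 0. With 1 liver left out at a time, each of these genes passed in 3 of 8 fits (limma adjusted p up to 0.133 for Cftr and 0.102 for Bicc1). Cftr was lost without any of Brap LKO replicates 1, 2 and 4 and control replicates 1 and 2, and Bicc1 without any of Brap LKO replicates 1 and 3 and control replicates 1 to 3. The most abundant, Spp1, had 0.95 (limma adjusted p = 0.198), and the keratin Krt19, chosen after its values were seen, had 1.15 (limma adjusted p = 0.181). The list summed to 2446 to 4592 normalized counts in Brap LKO and 1465 to 2465 in control livers, beside the 0.05 of Jag1 in the same livers. The part of these cells in the values of Jag1 and Notch2 was not tested.

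Endothelial markers were read beside Dll4, Notch4 and Notch1. All 17 were tested and fitted higher in Brap LKO (median 0.19 on the log2 scale), beside 48% of all tested genes. At an unadjusted p-value under 0.05, 4 were higher, beside 9.23% of all tested genes, and 0 passed limma's threshold. The most abundant was Eng (0.40, limma adjusted p = 0.305). Their summed normalized count was 10874, 15318, 16821 and 11641 in control replicates 1 to 4, and 18266, 14972, 15962 and 13390 in Brap LKO replicates 1 to 4. Control replicates 1 and 4, which had the lowest sums of all livers, also had the lowest Notch4 counts, and Dll4 was lowest in control replicate 4. In the Brap LKO livers, the sum and Dll4 were both highest in replicate 1 and lowest in replicate 4. Notch4 was also highest in Brap LKO replicate 1 (181) but was not lowest in replicate 4 (134). Notch1 was highest of the Brap LKO livers in replicate 4 (1102), and lowest of the controls in replicate 1 (1014). Dll4 was lower in Brap LKO replicate 4 (84.2) than in control replicate 1 (93.5), although the sum was higher (13390 against 10874). Over all tested genes, control replicate 1 was also nearest to replicate 4, and replicate 2 to replicate 3 (chi-square per gene of their reads 37.4 and 25.1). The other control pairs stood at 114 to 173. The part of endothelial RNA, or of this wider difference among the controls, in these values was not tested.

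**Figure D4:**
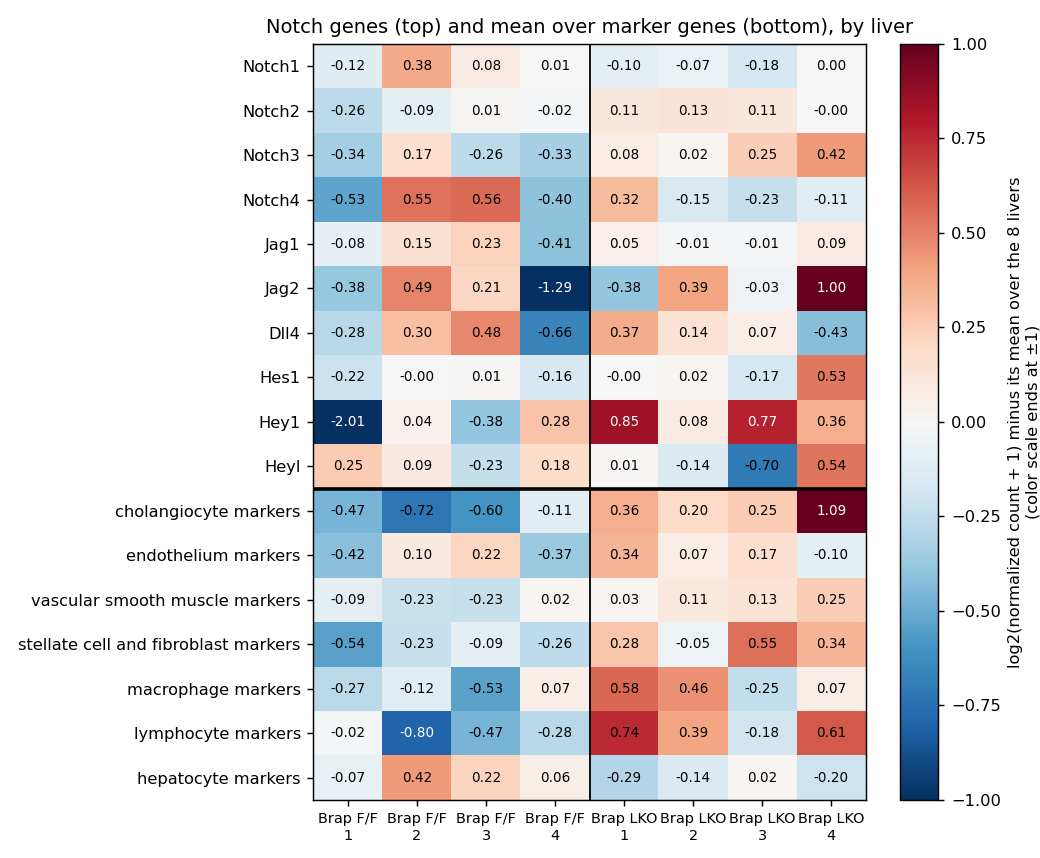
Deviation of each liver from the mean of the 8 livers, as log2(normalized count + 1), for the 10 Notch genes (above the line) and as the mean over the tested genes of 7 marker lists (below it). Red is above and blue below the mean, with the value in each cell. Cholangiocyte markers are below the mean in all 4 controls (-0.72 to -0.11) and above it in all 4 Brap LKO livers (0.20 to 1.09), a split that none of the Notch genes shows.

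Of 12 stellate cell and fibroblast markers, 10 were fitted higher, beside 48% of all tested genes. At an unadjusted p-value under 0.05, 6 were higher, beside 9.23% of all tested genes. Beside 0.664% of all tested genes called higher, 1 marker passed the threshold, Pdgfrb, a PDGF receptor of mural and stellate cells (0.91, limma adjusted p = 0.0494). With 1 liver left out at a time it passed in 1 of 8 fits, the one without control replicate 4, and limma's adjusted p reached 0.15. The most abundant was Dcn (0.37, limma adjusted p = 0.427), and the list summed to 8905 to 13757 normalized counts in Brap LKO and 5947 to 10263 in control livers. Fitted values were higher for 10 of 11 macrophage markers (most abundant Clec4f, 0.02), 8 of 8 lymphocyte markers (most abundant Cd4, 0.56) and 2 of 11 hepatocyte markers (Alb, -0.52). None (0) of these 3 lists' genes passed limma's threshold. At an unadjusted p-value under 0.05, 3 macrophage and 2 lymphocyte markers were higher and 1 hepatocyte marker was lower. Of all tested genes, 9.23% were higher and 6.59% lower at that level.

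The remaining machinery of the pathway was read from a list of 69 further genes, of which 65 were in the table and 60 were tested. None (0) passed the threshold with limma in either direction, and 9 higher and 1 lower had an unadjusted p-value under 0.05. These 10 of 60 lie near the background of 15.8% of all tested genes (9.23% higher and 6.59% lower). Of the 60, 33 were fitted above 0 and 27 below, with a median of 0.02 on the log2 scale. DESeq2 on the recovered reads called Aph1b as higher, where it called 2.73% of all genes in that direction. Of the genes described next, Rbpj and Ctbp1 were chosen after their values were seen.

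The receptor is cut by several proteases on its way to signaling. Of 10 tested genes for furin, the ADAM proteases and γ-secretase, 4 had fitted values above 0 and 6 below. Aph1b, a subunit of γ-secretase, was counted at 68.3, 61.2, 79.9 and 80.1 in Brap LKO replicates 1 to 4. In control replicates 1 to 4 it was counted at 30.8, 51.9, 41.0 and 46.1, without overlap (0.77 on the log2 scale, limma adjusted p = 0.103). Such a lack of overlap was seen in 9.87% of all tested genes. Furin, which cuts the receptor on its way to the surface, had the highest count of the group, at 11360 ± 544 and 13400 ± 1025 (SD, n = 4 each), with a log2 fold change of -0.24 (limma adjusted p = 0.217). The 10 tested glycosyltransferase genes, whose products add sugars to the receptor, had 5 values above and 5 below 0. Gxylt1, the most abundant, was at -0.0039 on the log2 scale, and Xxylt1 was farthest from 0 (0.35, limma adjusted p = 0.324).

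**Figure D5:**
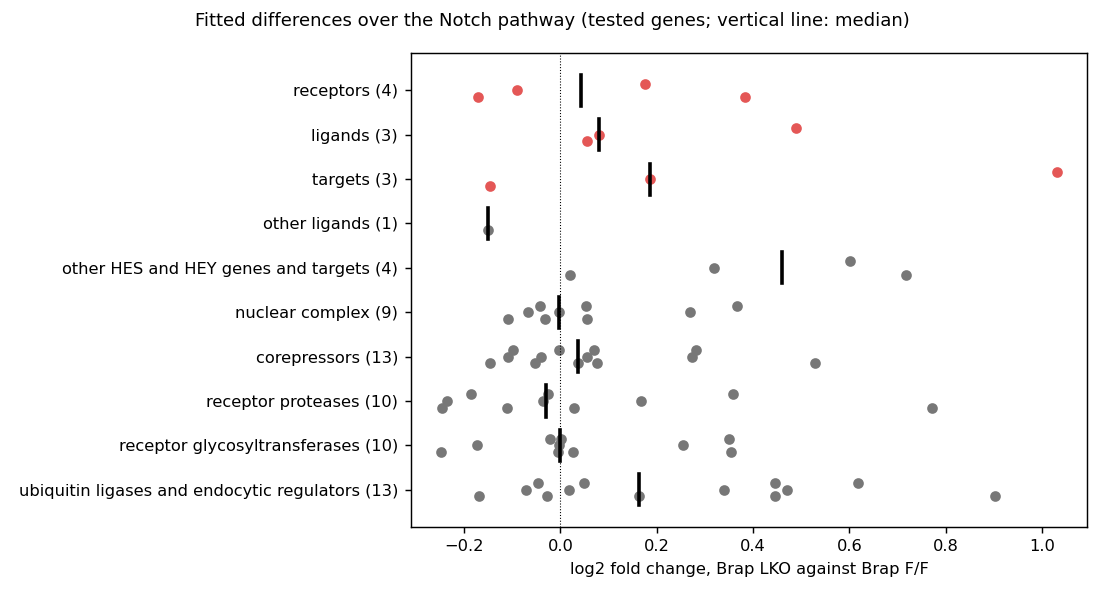
Fitted log2 fold change (horizontal axis, Brap LKO against Brap F/F) of each tested gene of the Notch pathway by role, with the number tested in parentheses and the median as a vertical line. The 10 receptor, ligand and target genes described above are red. Medians of the 4 largest groups of other genes lie between -0.03 and 0.16.

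In the nucleus, Rbpj, the DNA-binding partner of all 4 receptors, had a log2 difference of 0.27 (limma adjusted p = 0.328). Of the 9 genes of the activating complex, 4 had fitted values above 0, the largest of them Maml2 with 0.37 (limma adjusted p = 0.445). The acetyltransferase gene Kat2b was the most abundant, with a log2 fold change of -0.11 (limma adjusted p = 0.595). Of 13 corepressor genes, 7 had values above 0. Ctbp2 was at 51.6 ± 5.40 and 35.7 ± 6.13 normalized counts (SD, n = 4 each; 0.53 on the log2 scale, limma adjusted p = 0.198). The 4 Brap LKO livers were above the 4 controls, where groups did not overlap in 9.87% of all tested genes. Ctbp1, on the same list, had no overlap in the other direction, at 1374 ± 22.7 and 1482 ± 31.8 (SD, n = 4 each). Its log2 difference was -0.11 (limma adjusted p = 0.36). Ncor1, the most abundant corepressor gene, had a log2 difference of 0.08 (limma adjusted p = 0.637).

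Other targets and regulators completed the list. All 4 tested genes among the further HES and HEY genes and known targets had fitted values above 0, none (0) past the threshold. Sox9, a biliary transcription factor that is also on the cholangiocyte list, was counted at 287, 304, 250 and 498 in Brap LKO replicates 1 to 4 and at 195, 230, 126 and 260 in control replicates 1 to 4 (0.72 on the log2 scale, limma adjusted p = 0.239). Its highest liver was Brap LKO replicate 4, as for Hes1. Hes6, the most abundant of them, had a log2 difference of 0.02. Of 13 genes for ubiquitin ligases and endocytic regulators, which set how much ligand and receptor is active at the surface, 9 had values above 0. Mib1, which drives ligand uptake, was the most abundant (0.05, limma adjusted p = 0.796), and Neurl1a had the largest value (0.90, limma adjusted p = 0.236). Dll1 was the only further ligand gene tested, with a log2 fold change of -0.15 (limma adjusted p = 0.731).

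The genes whose profile over the 8 livers was most like that of Notch2 were Ccdc159, Plscr3 and Fam219b. Likeness was measured as the root mean square difference of centered log2(normalized count + 1), which was 0.0346, 0.0405 and 0.0476, where Notch2 itself ranged over 0.392. For Jag1, which ranged over 0.642, the closest were Ppil4, Zfr and 1700030K09Rik (0.0558, 0.0605 and 0.0704). None of these 6 genes passed the threshold, with log2 fold changes of 0.14, 0.17 and 0.16 for the first 3 and of 0.03, 0.0080 and 0.03 for the others.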

How the data were processed

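Whole-liver RNA sequencing of 8 mice, 4 in each group, was analysed. The authors aligned single-end reads to mm10 with STAR 2.6.0c and deposited, as signal, the reads counted per gene divided by a DESeq2 size factor per liver. The counter, annotation release and strand setting are not given in the sources used here. All values (100%, tolerance 0.01) were whole multiples of the smallest value above 0 of their liver, so reads were recovered, and every replicate pair differed by more than sampling noise (chi-square per gene 12.3 to 173). It was 12.3 to 49.5 among Brap LKO livers. Among the controls it was 37.4 for replicates 1 and 4, 25.1 for replicates 2 and 3, and 114 to 173 for the other pairs. The authors' own comparison of the groups (fold changes and p-values) was deposited too and was not used here. 0 columns of per-liver values were left out.

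Groups were compared with limma 3.58.1 in R 4.3.3 (mean-variance trend, no covariates) on log2(normalized count + 1) for genes with a mean of at least 5, with Benjamini-Hochberg adjustment. Single genes were also compared with exact permutation tests in Python 3.11.15. edgeR 4.0.16 and DESeq2 1.42.0 on recovered reads, other scalings, filters and pseudocounts, covariates and leaving out each liver were alternatives. Positions and lengths came from GENCODE M21 (mm10), promoters from RefSeq. Scripts were tested on simulated data. A count of 0 allows up to 3 reads, and p-values measure the spread between livers only. Named genes are Brap and the 10 Notch genes; pathway genes past the threshold, and of each role the one with the highest mean and the tested one with the largest absolute change; marker genes past the threshold and the most abundant of each list; and the 3 genes most like Notch2 and Jag1. The values of 1 pathway gene are not reported here. Others are marked as chosen after their values were seen. The members and lists were chosen with earlier results of these data known.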

Additional observations from a re-analysis of the deposited data

Results flagged for a closer look

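Of 20 groups of 4 livers examined over the 10 Notch genes, 2 held a liver far from its group, judged by its distance to the nearest liver as a part of the whole range, where 1 would be found by chance. Notch2 stood at 2051 normalized counts in Brap LKO replicate 4 and at 2219 or more in the other Brap LKO livers (part 0.834). Notch3 stood at 67.1 in control replicate 2 and at 49.4 or less in the other controls (part 0.869). Without Brap LKO replicate 4, the log2 fold change of Notch2 was 0.21, and without control replicate 2, that of Notch3 was 0.50, and neither gene passed the threshold.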

How the results depend on the processing

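Over 20 other settings, 186 of 198 values of the 10 Notch genes kept their sign and stayed on the same side of the threshold, 11 changed sign, and 1, Notch2 with every liver scaled to the same total (log2 fold change 0.33), came to pass it. That scaling gave 1 Notch gene and 2 further pathway genes (Aph1b among them) past the threshold, a median of 0.285 over the Notch genes, 459 higher genes in all, and log2 fold changes of 0.0659 for Notch4 and 0.00714 for Heyl. Quantile normalization gave 62 higher genes in all and -0.0469 for Dll4, and the animal number series as a covariate gave 0.0781 for Notch4, -0.0742 for Notch1 and 0.37 for Hes1. The series splits the animal numbers of the labels at 7600, and those under it belong to 3 of 4 Brap LKO mice and 1 of 4 controls, so series and genotype overlap in part. What the series stands for is not stated. Without a filter 1 further pathway gene, Hes7, named after its values were seen and with at most 1.02 normalized counts in any control, was past the threshold. With a minimum mean of 20, 9 genes in all were lower, and Hey1 and Jag2 could not be tested. DESeq2 gave 448 higher and 159 lower genes and 2 further pathway genes, against 102 and 16 with limma. Leaving out 1 liver at a time gave 11 (without Brap LKO replicate 1) to 178 (without control replicate 4) higher and 4 (without control replicate 2) to 54 (without control replicate 4) lower genes, a median over the Notch genes of 0.03 to 0.21, and log2 fold changes of -0.282 to 0.0827 for Notch4, -0.0728 to 0.141 for Jag1, -0.13 to 0.25 for Dll4, -0.352 to 0.0628 for Heyl, -0.241 to -0.0741 for Notch1 and 0.14 to 0.732 for Jag2, with 0 Notch genes past the threshold each time. The cause of these moves was not tested. Replicate numbers were not treated as pairs in the main fit. Deviations of same-numbered livers had correlations of -0.129 to 0.292. Brap LKO replicates 2, 3 and 4 matched the control of their own number best, and replicate 1 matched control replicate 3. These values do not settle whether the numbers pair the livers. With the replicate number as a block, 80 genes were higher and 15 lower, and 0 Notch genes were called. Depth limits Jag2 and Hey1, with as few as 2 and 3 reads in a liver.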
